A study of Caenorhabditis elegans with 5 samples.

Results

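Of the 24897 pooled peaks of the ATTF-4 ChIP-seq experiment, 2554 lay on the 5 autosomes with a summit far from any protein-coding gene. A summit counted as far when it lay outside every protein-coding gene body, more than 1000 bp before or 200 bp after the 5' end of any such gene, and more than 1000 bp past its 3' end. These far peaks made up 13.5% of 18909 autosomal peaks (95% Clopper-Pearson interval 13.0% to 14.0%, counting error only), after 2 windows of chromosome IV, from 4.5 to 7.0 Mb and from 13.5 to 17.2 Mb, were left out. The other 16355 autosomal peaks served for comparison. The worms were one group, whole C. elegans L4 larvae of strain OP219, sexes pooled. This strain has the unc-119(ed3) III mutation and the transgene wgIs219, which expresses attf-4 (C05D10.1) with GFP and FLAG fused to its C-terminal end. All samples carry both, no tissue was separated, and an untagged or input group is not analysed here. There were 3 biological replicates and 5 libraries, of which replicate 1 had 1 and the other replicates 2 apiece. The deposited lists hold 1 list for each biological replicate, a pooled list over the 3, and a final set of 173 peaks that passed the irreproducible discovery rate, a measure of agreement between replicates. Apart from the final set, the lists were made to hold background entries too. The median −log10 q-value of the far peaks in the pooled list was 0.133, and most of them carry little statistical evidence on their own.

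AT-hook proteins such as ATTF-4 contact the minor groove of DNA through a short basic motif. In the compact genome of C. elegans most regulatory sequence lies close to genes, and sequence far from coding genes holds distal regulatory elements, non-coding RNA genes, pseudogenes and repeats. tRNA and snoRNA genes are short and either carry their own promoters or lie within other genes.

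The sequences under 8 far peaks are shown because they are among the strongest members, or lie beside a tRNA or miRNA gene, and because they show with and without the GA repeat, which of the motifs searched was the most frequent at strong members. Each is the 101 bp centred on the summit, from the plus strand of the reference genome sequence of the ce11 build (RefSeq), 5' to 3', with matches to GAGAGA or its reverse complement TCTCTC in capitals. The peaks between sup-26 and R10E4.3 and between Y49A3A.4 and unc-39 hold no match, and the other 6 hold at least 1. These 8 are picked examples and do not give the share among members. The motif was at 12.8% of far peaks, against 8.08% of the other autosomal peaks, and at 5 of the 14 in the final set. Those 14 are the strongest far peaks, and nothing is read from that count. Members by the tRNA genes WBGene00023109 and WBGene00023204 and by cel-mir-60, not shown, hold no match.
sup-26 and R10E4.3, chrIII:4282170-4282270: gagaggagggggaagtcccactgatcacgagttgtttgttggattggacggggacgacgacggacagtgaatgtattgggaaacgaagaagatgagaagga
Y49A3A.4 and unc-39, chrV:14366670-14366770: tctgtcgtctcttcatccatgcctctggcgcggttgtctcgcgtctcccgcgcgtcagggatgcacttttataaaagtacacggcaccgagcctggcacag
gldi-3 and mtrr-1, chrII:9282910-9283010: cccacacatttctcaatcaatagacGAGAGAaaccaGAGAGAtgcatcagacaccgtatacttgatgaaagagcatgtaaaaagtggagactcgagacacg
msi-1 and Y1A5A.1, chrIII:3980424-3980524: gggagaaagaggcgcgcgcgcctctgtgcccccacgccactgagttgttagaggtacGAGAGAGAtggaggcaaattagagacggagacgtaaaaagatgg
Y17D7C.2 and asp-19, chrV:18723749-18723849: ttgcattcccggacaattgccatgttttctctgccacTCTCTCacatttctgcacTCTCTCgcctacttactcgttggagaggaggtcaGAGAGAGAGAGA
gpb-1 and F44E5.4, chrII:11749708-11749808: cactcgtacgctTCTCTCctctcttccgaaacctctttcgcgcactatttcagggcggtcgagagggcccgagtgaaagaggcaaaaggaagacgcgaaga
tRNA gene WBGene00022985, chrIII:7030598-7030698: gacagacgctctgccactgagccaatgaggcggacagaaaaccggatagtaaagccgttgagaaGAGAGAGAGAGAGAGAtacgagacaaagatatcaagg
cel-mir-238, chrIII:8867552-8867652: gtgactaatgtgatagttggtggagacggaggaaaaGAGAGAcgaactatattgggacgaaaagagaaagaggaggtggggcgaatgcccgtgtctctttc

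Of the far peaks, 14 were in the final set (0.548%, interval 0.3% to 0.918%), against a background of 0.492% over all 18909 autosomal peaks and 0.483% of the other autosomal peaks. The far share lay close to that background. Among the other classes the share was 0.817% for promoter peaks, 0.595% for peaks just downstream of genes, 0.471% for intronic and 0.137% for exonic peaks. The 14 were the 14 strongest far peaks, with pooled signal values of 30.1 to 45.9, and the strongest far peak outside the set had 29.0. Signal is the authors' peak caller's own value, on a scale the sources used here do not give, and it is compared within a list only. A replicate list was counted as holding a peak when it had a summit within 100 bp. By that rule 11 of the 14 were found in replicate 1, 8 in replicate 2 and 12 in replicate 3. All 3 lists held 5 of them, exactly 2 lists held 7, and 1 list held 2.

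The strongest far peak had a pooled signal of 45.9 at chrI:5706800-5707119. It lay 1407 bp past the end of pamn-1, a peptide-amidating enzyme gene, 9614 bp before the LIM homeobox gene lim-7, and 86 bp from the snoRNA gene T19B4.8. It ranked 39th in replicate 3 with a signal of 32.6 and 4358th in replicate 2 with a signal of 4.43, and the nearest summit in replicate 1 was 581 bp away. The next, at chrIII:4282060-4282379 with a signal of 38.8, lay 1996 bp from sup-26, an RNA-binding protein gene, and ranked 52nd in replicate 1, 17555th in replicate 2 and 78th in replicate 3. The peak at chrII:9282800-9283119 (signal 37.4) lay between gldi-3 and mtrr-1, the methionine synthase reductase gene, and ranked 15177th in replicate 1, 73rd in replicate 2 and 142nd in replicate 3. Each of these 3 peaks was thus near the top of at least 1 replicate list and far down, or missing, in at least 1 other.

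The peak at chrV:14366560-14366879 (signal 36.4) lay within the ncRNA gene F56A12.8, 6354 bp before unc-39, a homeobox gene. It ranked 163rd in replicate 1 and 185th in replicate 3, and its nearest summit in replicate 2 was 103 bp away, just past the limit for sharing. Near misses of this kind also set the counts of other members. The peak 4083 bp before the start of msi-1, the Musashi RNA-binding protein gene, had a signal of 35.9, ranked 540th in replicate 2 and 46th in replicate 3, and missed replicate 1 by the same margin, at 103 bp. The peak between znf-782 and csn-4, a COP9 signalosome subunit gene, had a signal of 35.3 and ranked 264th in replicate 3, with summits 104 bp away in replicate 1 and 600 bp away in replicate 2. The peak between F54F12.1 and Y39E4B.6 (signal 33.2) ranked 284th in replicate 1, with summits 111 and 116 bp away in replicates 2 and 3.

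The remaining final-set members lay between cysl-2 and dhs-8 (signal 35.3, within the ncRNA gene K10H10.14), cdk-14 and zfr-1 (34.6), lpin-1 and letm-1 (34.1), Y17D7C.2 and asp-19 (32.6, 28 bp from a pseudogene), ceh-5 and gfi-2 (32.0, 62 bp from the ncRNA gene C16C2.10), chd-7 and W09C3.4 (30.9, within linc-91), and gpb-1 and F44E5.4 (30.1, 168 bp from the ncRNA gene F44E5.14). Among them lpin-1 encodes lipin, a phosphatidate phosphatase, ceh-5 a homeobox protein, chd-7 a chromodomain helicase and gpb-1 a G protein beta subunit. The lpin-1 peak ranked 237th in replicate 1 and 104th in replicate 3, and the ceh-5 peak 373rd and 155th in those lists, with no summit within 100 bp in replicate 2 for either. The peak beside gpb-1 instead ranked 1275th in replicate 1 and 79th in replicate 2, and replicate 3 had none within 100 bp. Of the 14 final-set members, 8 were within the 1000 strongest peaks of replicate 1, 3 of replicate 2 and 11 of replicate 3, and 0 were so in every list. No far peak of any signal was among the 1000 strongest of all 3 lists.

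**Figure D1:**
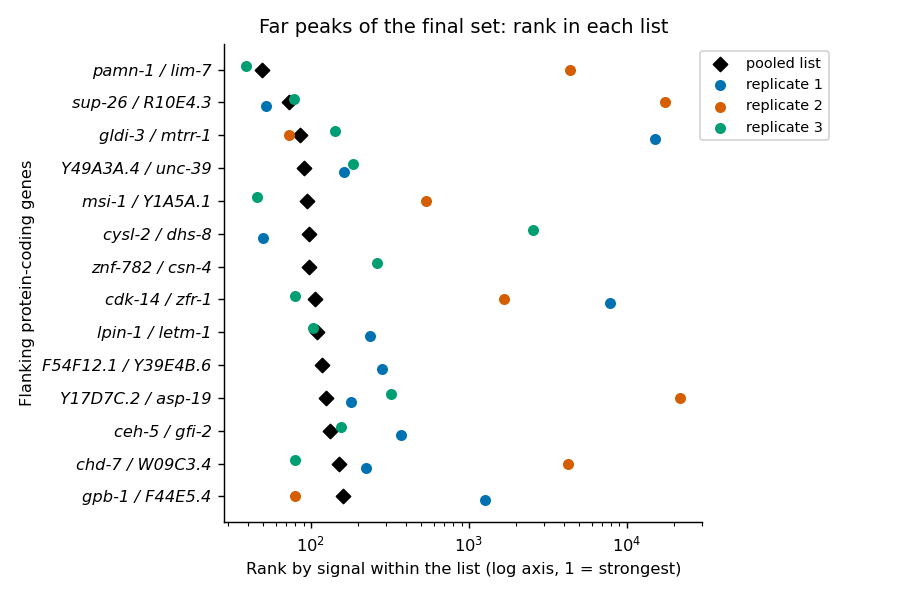
Rank by signal (log axis, 1 is the strongest) of the 14 far peaks in the final set, in the pooled list (black diamonds) and in each replicate list with a summit within 100 bp (coloured points), named by the protein-coding genes on either side. A missing point means no summit within 100 bp; ranks in replicate 2 run from 73 to 21901.

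Over all far peaks, 61 were found in all 3 replicate lists (2.39%, interval 1.83% to 3.06%), against a background of 2.51% over all autosomal peaks and 2.53% of the others. The share was again close to the background. A further 506 were found in 2 lists, 1347 in 1 list and 640 in none. Replicate 1 held 32.7% of the far peaks, replicate 2 19.9% and replicate 3 47.0%, against 33.0%, 20.1% and 45.8% of the other autosomal peaks in the same lists. The replicate lists went into the pooled list, so this sharing describes the lists and is no independent repeat. Signal and sharing moved together: the median pooled signal was 8.36 for far peaks found in no replicate list, 9.15 for those in 1, 11.1 for those in 2 and 18.6 for the 61 in all. Of the 29 far peaks with a signal of 25 or more, 13 were in all 3 lists (44.8%), against 46.7% of the other autosomal peaks of that strength, and of the 650 under 8 only 2 were (0.308%, against 0.119%).

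The far peak placed most evenly, chosen by its lowest rank in any list after the values were seen, was at chrII:11634996-11635315, 69 bp from the snoRNA gene ZK20.9 and 1547 bp before the start of din-1, a nuclear receptor corepressor gene. Its pooled signal was 25.2, and it ranked 1087th, 288th and 1286th in replicates 1, 2 and 3 with signals of 8.95, 8.43 and 10.9. The next by that measure lay at chrIV:2665616-2665935 between Y69A2AR.31 and Y69A2AR.1 (pooled signal 23.3) and ranked 2311th, 178th and 2119th. Neither was in the final set. Of the 61 members in all 3 lists, 7 were among the 5000 strongest of every list, and the median of the lowest rank was 16680. A −log10 q-value over 1.3, a q of about 0.05, was reached by 125 far peaks (4.89%, interval 4.09% to 5.80%), against a background of 4.54% over all autosomal peaks.

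Far peaks were sparser than the other autosomal peaks per length of sequence. The far sequence spanned 12.6 Mb, 16.5% of the autosomal sequence considered, and held 202 peaks per Mb, against 257 per Mb in the remaining 63.7 Mb, a ratio of 0.789. Replicate 1 had 248 far peaks per Mb, against 306 per Mb elsewhere, replicate 2 had 182 against 229, and replicate 3 had 249 against 309. The ratio was 0.803 ± 0.00837 (SD, n = 3) and below 1 in 3 of 3 lists (exact sign-flip test over the 3 replicates, two-sided, p = 0.25). With 3 replicates 0.25 is the smallest p this test can give, so none of the 6 comparisons tested in this way could pass 0.05, and each is given by its size and its spread. Promoter sequence held 296 peaks per Mb, exonic sequence 277, sequence just downstream of genes 236 and intronic sequence 215. Repeated sequence moved with this result: 16.7% of the far sequence starts a 31-mer found more than once in the genome, against 7.73% of the rest, and with such positions left out of peaks and lengths the pooled ratio was 0.872.

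**Figure D2:**
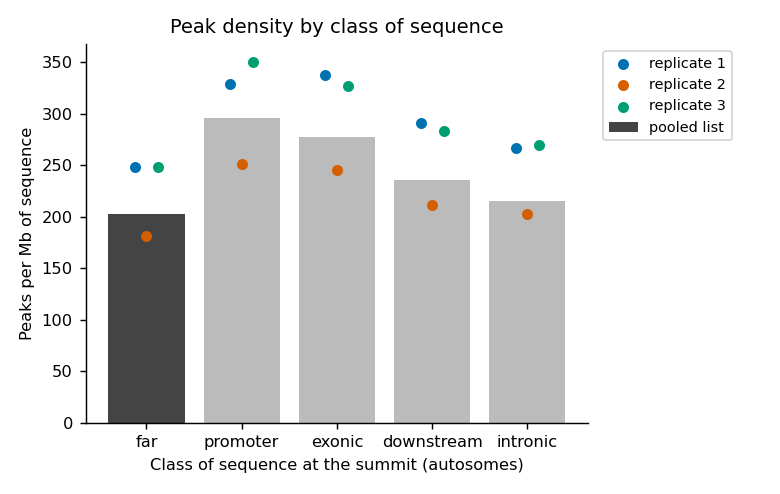
Peaks per Mb of autosomal sequence by the class of sequence at the summit, far sequence at the left. Bars give the pooled list and points the 3 replicate lists; far sequence held 202 pooled peaks per Mb and the other classes 215 to 296.

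The strength of far peaks was close to that of the others. Their pooled signal had a median of 9.22 (range 6.97 to 45.9), against a median of 9.34 (range 6.97 to 94.2). As a percentile within each autosomal list the far mean minus the mean of the others was −0.953 ± 0.435 points (SD, n = 3; exact sign-flip p = 0.25; lower in 3 of 3 lists). The order turned with the class used for comparison: the pooled difference was −3.59 points against promoter peaks and −2.13 against peaks downstream of genes, but 0.784 against exonic and 0.992 against intronic peaks. The X chromosome held 1050 peaks under the same distances. The autosomal far peaks had 202 per Mb, a median signal of 9.22 and 14 final-set members, against 228 per Mb, 9.54 and 15 (1.43%) on X; the difference was not tested.

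Summits lay between 1001 and 19459 bp from the nearest coding gene, with a median of 2224 bp. At the edge of the rule, 3 members lay at 1001 bp, of which the strongest 2 were beside C36B1.9 (signal 12.4) and rha-1 (11.8), and 1 peak at 1000 bp, beside unc-104 (12.3), was left out. Density changed little over the first few kb. It was 208 far peaks per Mb between 1000 and 1500 bp from a gene, 212 between 1500 and 2000 bp, 215 between 2000 and 3000 bp, 195 between 3000 and 5000 bp and 186 between 5000 and 10000 bp. Beyond 10000 bp it was 59.8 per Mb, from 11 peaks in 0.184 Mb, and of that sequence 47.6% was repeated, against 14.7% in the nearest bin. In sequence without repeated 31-mers the densities were 231 to 249 per Mb in the bins up to 10000 bp and 114 beyond. The replicate lists had 103, 120 and 130 per Mb beyond 10000 bp, against 255.9, 198 and 260 in the nearest bin. The final-set members were spread over these distances, with 4 within 1500 bp, 4 between 1500 and 3000 bp, 4 between 3000 and 5000 bp, and 2 further out.

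Among gaps with a gene on either side, far peaks were sparsest where both genes end. Gaps between 2 gene starts held 1055 members at 218 per Mb, gaps between a gene end and a gene start held 1353 at 205 per Mb, and gaps between 2 gene ends held 146 at 124 per Mb. The replicate lists gave 261, 198 and 270 per Mb between gene starts, 255.8, 185 and 251 between an end and a start, and 153, 100.5 and 152 between gene ends, so that gaps between gene ends were the lowest of these 3 kinds in each list. The 9 stretches beyond the last gene of a chromosome, 0.0236 Mb in all, held 0 peaks in the pooled and replicate lists. Of the final-set members 7 lay between 2 gene starts, 7 between an end and a start, and 0 between 2 gene ends. Repeated sequence moved with this order as well, at 14.5%, 14.6% and 36.9% of the far sequence, and in sequence without repeats the densities were 251, 237 and 193 per Mb.

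**Figure D3:**
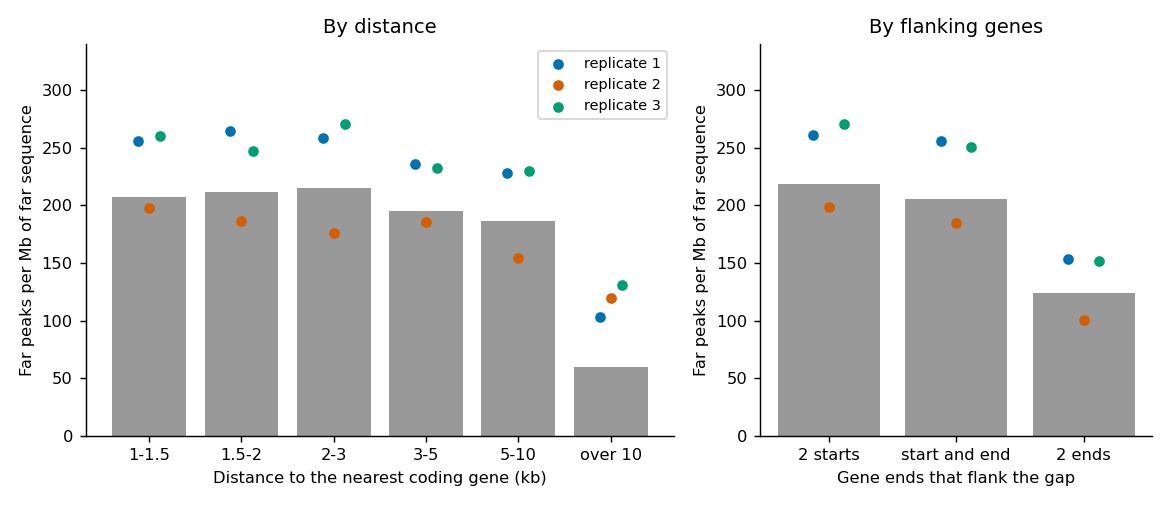
Far peaks per Mb of far sequence by distance to the nearest coding gene (left) and by the gene ends that flank the gap (right). Bars give the pooled list and points the 3 replicate lists; density was 186 to 215 per Mb up to 10 kb, and 124 per Mb between 2 gene ends.

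Far sequence formed 3675 gaps, and 1403 of them (38.2%) held at least 1 far peak. Gaps with a peak had a median length of 4592 bp of far sequence, and gaps without one 1200 bp. Of these, 797 held 1 peak and 63 held 5 or more. The gap with the most members, named after its count was seen, lay between the end of snt-1, the synaptotagmin gene, and the start of egl-27, which encodes a chromatin protein related to the NuRD complex. Its 16574 bp of far sequence (chrII:6817434-6834007) held 17 members, and 17, 11 and 16 peaks in replicates 1, 2 and 3. The strongest 3 of these members had pooled signals of 23.9, 23.4 and 20.4, at 12511, 8984 and 3185 bp from egl-27. Of the 17, 2 were in all 3 replicate lists, 4 reached a −log10 q-value over 1.3 and 0 were in the final set, where the shares over all autosomal peaks were 2.51%, 4.54% and 0.492%. With 17 peaks in a gap picked for its count, nothing is read from these counts. Only 0.0241% of that gap was repeated sequence. The gap between C30G12.4 and C30G12.2 followed with 14 members, signals up to 17.6, and 0 with a −log10 q-value over 1.3.

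Near annotated non-coding genes the far peaks were unevenly spread. A peak can lie near genes of several types and is then counted under each. Within 200 bp of a tRNA gene lay 25 far peaks, which is 1331 per Mb of that sequence, against 201 per Mb in far sequence away from tRNA genes. That 6.63-fold ratio in the pooled list was 3.73 ± 0.545 in the replicate lists (SD, n = 3). For snoRNA genes, which guide the modification of other RNAs, the count was 15 and the ratio 4.08 pooled and 3.08 ± 0.772 in the replicates. For genes annotated only as ncRNA it was 253 and 2.22, with 1.89 ± 0.0939 in the replicates. These ratios were above 1 in 3 of 3 lists for each type. In sequence without repeats the near and away densities were 1231 and 238 per Mb for tRNA, 854 and 238 for snoRNA, and 432 and 228 for ncRNA genes.

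The remaining gene types, antisense RNA genes apart, gave smaller or opposite ratios. For antisense RNA genes the pooled ratio was 2.22 from 4 peaks, and the replicate lists gave 1.81, 0 and 1.35, on both sides of 1. For miRNA genes the ratio was 1.73 from 7 peaks, and the replicate lists gave 1.41, 1.38 and 1.61. It was 1.14 from 36 for lincRNA genes, and 0.805 from 12 for piRNA genes, with the dense piRNA region of chromosome IV left out by the rule. The replicate lists fell on both sides of 1 for lincRNA and piRNA genes too. Pseudogenes, which are gene relics without a coding frame, took up 15.8% of the far sequence within 200 bp and held 243 far peaks (9.51%), a ratio of 0.561, with 0.685 ± 0.0687 in the replicates. Of the sequence near pseudogenes 20.4% was repeated, against 16.1% away from them, and in sequence without repeats the densities were 151 and 255 per Mb. There was 1 far peak beside an snRNA gene and there were 0 beside rRNA genes, where 74.3% of the far sequence was repeated. Of all far peaks, 2000 had none of these genes within 200 bp, 7 of the final-set members among them.

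**Figure D4:**
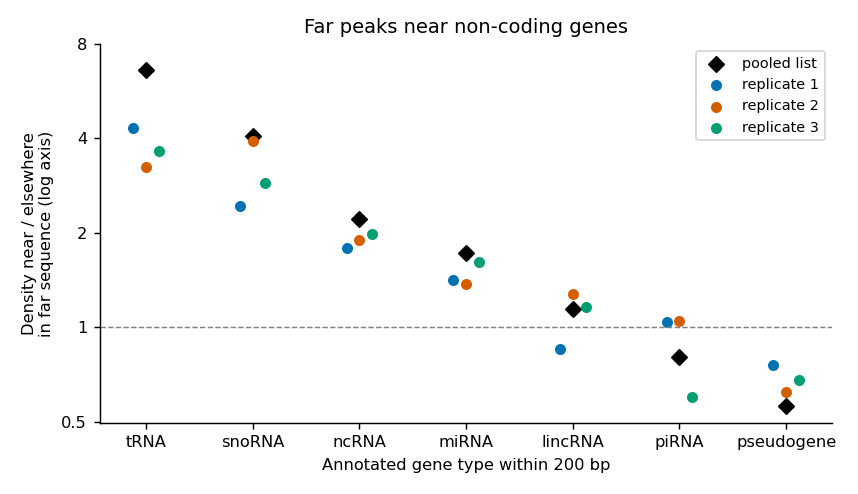
Density of far peaks within 200 bp of each type of non-coding gene divided by the density in the remaining far sequence (log axis; dashed line at 1). Black diamonds give the pooled list and coloured points the replicate lists. In every list tRNA, snoRNA, ncRNA and miRNA genes lie above 1 and pseudogenes below 1.

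The individual members named near small RNA genes ran in pooled rank from 49th, by T19B4.8, to 7126th, by the snRNA gene T08G5.11. The strongest tRNA member, with a signal of 24.4 at chrIII:7030488-7030807, lay 20 bp from the tRNA gene WBGene00022985 and 1443 bp from cyk-1, a formin gene, and ranked 8836th in replicate 2 and 913th in replicate 3. The others named were 22 bp from WBGene00023109 (signal 18.4) and 78 bp from WBGene00023204 (17.9). Of the 25 tRNA members 0 were in the final set and 0 in all 3 replicate lists, against 0.492% and 2.51% over all autosomal peaks, and 25 peaks are too few to tell 0 from these shares. Among snoRNA members the strongest after the T19B4.8 peak lay 41 bp from Y23H5B.10 (signal 28.0; ranks 350, 922 and 7058 in replicates 1, 2 and 3). The strongest miRNA members lay 177 bp from cel-mir-238 (20.4), 97 bp from cel-mir-79 (16.8) and 83 bp from cel-mir-60 (14.1), the strongest piRNA member lay 159 bp from 21ur-14054 (19.6), and the snRNA member lay within T08G5.11 (11.2).

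Taking the small RNA genes as a group (tRNA, snoRNA, snRNA, miRNA and rRNA), 48 far peaks (1.88%) had one within 200 bp, against 2.07% of the other autosomal peaks. In the replicate lists the share was 1.27% ± 0.0626, against 1.67% ± 0.117 (SD, n = 3; lower in 3 of 3 lists; exact sign-flip p = 0.25). The group covered 0.637% of the far sequence, against 0.556% of the rest. Among the strongest 1000 pooled peaks 4.95% of 101 far peaks, against 16.0% of 581 others, lay by a small RNA gene. The 48 had a median signal of 11.6, and the remaining far peaks 9.19.

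Strong far peaks were richer in GC than weak ones, as were strong peaks among the others. GC within 100 bp of the summit was 37.2% ± 7.08 over the far peaks, against 37.7% ± 7.08 over the others (SD over peaks), where the far sequence itself had 35.0% and the rest 35.8%. In the replicate lists the far mean minus the mean of the others was −0.793 ± 0.184 points (SD, n = 3; lower in 3 of 3; exact sign-flip p = 0.25). That direction turned in the pooled list from a signal of 10 upward. Far peaks under 8 had 35.9%, against 37.1% for the others, and those from 10 to 15 had 38.1%, against 37.8%. Far peaks among the strongest 1000 had 43.7%, against 42.1% for others of that rank, and the bin with signals of 25 or more had 48.1%, against 44.9%. The 14 final-set members ran from 33.3% (the ceh-5 peak) to 60.2% (the unc-39 peak), with a median of 47.3%. Soft-masked bases, which mark repeats in the reference, made up 29.5% of the windows of far peaks, against 28.3% for the others, and 40.1% of the far sequence. Most of the 31-mers near the summit, over 50%, were repeated in 0.392% of far peaks, against 0.440% of the others in the pooled list, and in 0.979% ± 0.286, against 0.775% ± 0.138, in the replicate lists (higher in 3 of 3; exact sign-flip p = 0.25).

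Of 9 short motifs searched on both strands within 50 bp of the summit, the GA repeat GAGAGA had the largest ratio between the far peaks and the others. It was present at 328 far peaks (12.8%), against 8.08% of the other autosomal peaks and 6.05% of windows of the same 101 bp tiled over far sequence. The replicate lists had it at 10.7% ± 1.01 of far peaks, against 7.11% ± 0.300 of the others (SD, n = 3; higher in 3 of 3 lists). At far peaks among the 1000 strongest it was present at 40 of 101 (39.6%), against 102 of 581 others (17.6%). By signal its share of far peaks was 8.62% under 8, 10.7% from 8 to 10, 13.6% from 10 to 15, 24.6% from 15 to 20, 45.1% from 20 to 25 and 31% above, against 7.12%, 7.10%, 8.07%, 12.5%, 16.7% and 23.6% of the others in the same bins. The last far bin holds 29 peaks, with an interval of 15.3% to 50.8%. Of the 14 final-set members 5 carried it, and of the 61 in all 3 lists 21 did (34.4%). Both sets lean to strong peaks, at which the motif was more frequent among the others as well. The matching shares of the others are not given here, so nothing is read from these counts. A match is a description of the letters there and not a binding site.

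**Figure D5:**
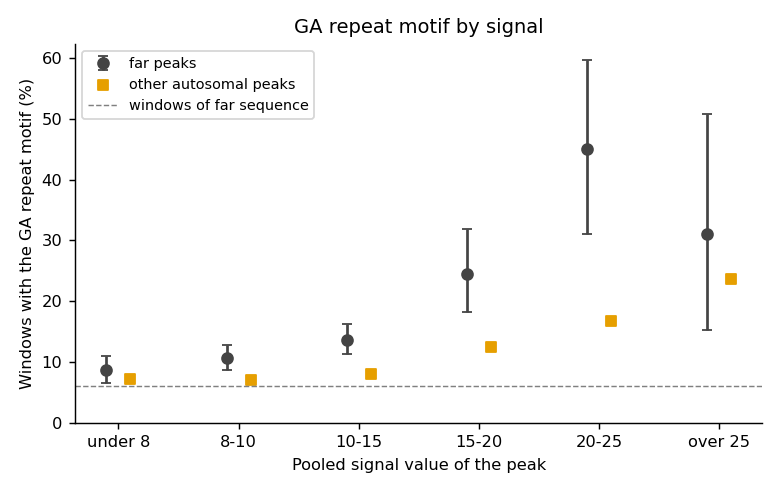
Share of 101 bp summit windows that hold the 6-base GA repeat motif, by pooled signal of the peak, for far peaks (circles, with 95% Clopper-Pearson intervals for counting error) and other autosomal peaks (squares). The dashed line marks windows of far sequence at 6.05%; far peaks reach 45.1% at signals of 20 to 25.

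The AT-rich motifs had lower shares at strong peaks, among the far peaks and among the others alike. AAAAAA was present at 38.9% of far peaks, 33.5% of the others and 43.8% of windows of far sequence. Among the 1000 strongest it was at 19.8% of far peaks, against 24.1% of the others. AAATTT was at 19.7%, 20.5% and 27.8% in that order, and at 9.90% of the strong far peaks, against 11.7% of the strong others. AATATT was at 9.28%, 10.2% and 12%, and at 2.97% of the strong far peaks, against 8.09% of the strong others. TATATA was at 3.68%, 3.08% and 3.62%, CCTGCG at 1.33%, 1.36% and 0.996%, and GGCGGG at 2.08%, 2.00% and 2.14%. GTTCGA, which occurs in the internal promoter of tRNA genes, was at 3.84%, 4.11% and 3.57%, and TTAGGC, the telomere repeat of C. elegans, at 3.45%, 2.51% and 2.98%. Over peaks of all strengths, each of these except AAAAAA differed by less than 1 point between the far peaks and the others.

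Far peaks were present on every autosome, with 450 on chromosome I, 560 on II, 476 on III, 392 on IV and 676 on V. The density was 181 per Mb on chromosome V and 203 to 218 on the others, and on each of them it was below that of the remaining sequence, which ran from 225 per Mb on V to 282 on III. The arms of each autosome, taken here as 33.3% of its length from either end, recombine more and hold more repeats than the centres. Of the far peaks 59.8% lay on arms, against 57.5% of the others, while arms made up 67.0% of the far sequence and 65.2% of the rest. The share in the replicate lists was higher by 1.82 ± 0.211 points (SD, n = 3; 3 of 3 lists; exact sign-flip p = 0.25), and so was the share of sequence. Far density was 181 per Mb on arms and 247 per Mb in centres, and centres were denser on each of the 5 autosomes. In sequence without repeats it was 217 and 281 per Mb. Of the final-set members 10 (71.4%) lay on arms and 4 in centres, where arms made up 67.0% of the far sequence. The other autosomal final-set peaks were 32 on arms and 47 in centres. With 14 members, nothing is read from this difference.

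The 2554 far peaks had 1749 nearest protein-coding genes. Each family below was listed by its name, and its count is set beside the share of far sequence for which a member of it is the nearest gene, since long gaps collect more peaks. The egl genes, named for defects in egg laying, were nearest to 35 far peaks (1.37%), against 0.563% of the far sequence, and in the replicate lists the share was 1.14% ± 0.155 (SD, n = 3). Of the 35, egl-27 took 10, the Hox gene egl-5 took 6, and the strongest, with a signal of 27.1, lay by egl-9, the HIF prolyl hydroxylase gene. The unc genes, named for uncoordinated movement, were nearest to 33 (1.29%), against 0.818% of far sequence, with 1.08% ± 0.146 in the replicate lists. The lin genes were nearest to 14 (0.548%), against 0.336%, the strongest of them by the LIM homeobox gene lin-11 (21.7), but the replicate lists gave 0.448%, 0.393% and 0.319%, the last of them below the share of sequence. Chemoreceptor genes were nearest to 82 (3.21%), against 6.09%, with 4.04% ± 0.248 in the replicate lists, and F-box genes of the fbxa, fbxb and fbxc families to 20 (0.783%), against 1.57%, with 0.812% ± 0.0715 in the replicate lists.

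Other families lay closer to their share of sequence or were few. Nuclear hormone receptor genes were nearest to 60 far peaks (2.35%, against 2.02% of far sequence), neuropeptide genes of the flp, nlp and ins groups to 35 (1.37%, against 1.20%), C-type lectin genes to 15 (0.587%, against 0.769%) and collagen genes to 13 (0.509%, against 0.490%). The lgc and acr ligand-gated channel genes were nearest to 11 (0.431%, against 0.711%), twk potassium channel genes to 8 (0.313%, against 0.206%), ceh homeobox genes to 5 (0.196%, against 0.565%), ribosomal protein genes to 3 (0.117%, against 0.240%) and histone genes to 0 (against 0.0416%). Several of these pooled directions did not hold in the replicate lists. Neuropeptide genes had 1.09%, 0.829% and 0.957% there, all below their share of sequence, and nuclear hormone receptor genes 2.24%, 1.57% and 2.20%, below it in 1 list. Ribosomal protein genes had 0.543%, 0.305% and 0.223%, above their share of sequence in 2 lists. Collagen genes had 0.512%, 0.393% and 0.670%, and twk genes 0.352%, 0.349% and 0.159%, on both sides of theirs. Only unc and ceh genes were nearest to a final-set member, with 1 each.

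The attf-4 gene itself, at chrIII:6080563-6084748, was the nearest coding gene to 5 far peaks, which lay between 1595 and 3762 bp from it on the side of mapk-15. Their signals were 9.03, 13.7, 7.01, 19.2 and 12.2 in the order of the chromosome, and 2 of them were found in 2 replicate lists, 1 in 1 list and 2 in none. The transgene adds attf-4 sequence to the genome of this strain, and its part in these peaks was not tested. At unc-119, the marker gene of the strain, 3 pooled peaks lay within 2000 bp, with signals up to 12.7, and 0 of them were far peaks.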

How the data were processed

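ChIP-seq of tagged ATTF-4 was analysed from the peak lists on ce11. Per the file notes, the authors made 1 list from each biological replicate's alignment and a control, a pooled list from all 3 alignments, and a final set by the irreproducible discovery rate. The deposited values are a signal per peak, on a scale not stated, and a −log10 q-value as the authors' peak caller gave it. Which aligner and peak caller were used is not given in the sources used here. The lists hold 30000, 22227 and 30000 replicate peaks, 24897 pooled peaks and 173 final peaks. They carry no read counts, so depth is unknown, and intervals cover counting error of peaks only. All 7 chromosome names and lengths of the reference fitted the lists.

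Genes came from the Ensembl WBcel235 annotation, release 115. Each summit took 1 class in the order promoter, exon, intron, downstream and far. Repeats were 31-mers found more than once in the genome on either strand. Replicate lists were compared by exact sign-flip tests over 3 replicates, where nothing but the labels says that they came from separate cultures. The class and density steps were tested on simulated data. Regions were named by a rule: the 12 strongest members, those in the final set, those among the 1000 strongest of every replicate, and up to 3 by each type of non-coding gene. Members, lists and motifs were chosen with earlier results of these data known. Alternatives varied distance, list length, repeats, windows and replicates. Tools were pandas 2.3.3, numpy 2.4.6, scipy 1.17.1 and matplotlib 3.10.9 under Python 3.11.15.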

Additional observations from a re-analysis of the deposited data

How the results depend on the processing

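Of 59 alternatives, 28 kept the direction of their result and stayed within its replicate SD or counting interval. A further 22 moved it beyond that and 9 reversed it. A kept result could still differ in size: the pooled signal difference was −0.342 points with 500 bp, against −0.705. The 28 include each case of leaving out 1 replicate for the 6 tested results. The share of far peaks was 18.7% with distances of 500 bp, 7.65% with 2000 bp, 12.3% with the whole peak outside and 14.2% with the chromosome IV windows kept. The pooled density ratio was 0.781 with 2000 bp, 0.770 for the 5000 strongest peaks and 0.872 without repeated 31-mers. The share in all replicates was 0.705% within 50 bp, 6.03% within 200 bp, 0.274% for the 5000 strongest of each list, and 6.03% to 12.2% leaving out 1 replicate, each close to the share over all autosomal peaks (0.751%, 6.63%, 0.338%, and 6.04% to 11.9%). The pooled signal difference was −1.36 points with 2000 bp, −3.59 against promoter, −2.13 against downstream, 0.784 against exonic and 0.992 against intronic peaks. The GC difference was −0.740 points over 250 bp, 0.272 against promoter, −2.84 against exonic, 0.830 against intronic and 1.41 against downstream peaks, and 0.854 for the 5000 strongest. The small RNA gene difference was 0.0848 points within 0 bp, −0.619 within 500 bp and −1.498 for the 5000 strongest. The difference in the share of peaks called repeated was 1.19 points for peaks with any repeated 31-mer and, in an alternative added after seeing the data, 0.310 points for peaks with over 50% soft-masked bases near the summit, against −0.0487 in the pooled list. The arm difference was 1.99 points with arms taken as all sequence outside the middle 50% and 0.920 for the 5000 strongest. Leaving out 1 replicate reversed none of the 6 tested results. It could not have done so, because each had the same direction in 3 of 3 lists. The causes were not tested. Far and other peaks were compared within each replicate list, and with 1 group of samples there was no second group to pair it with.

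Peak lists without read counts give no depth, and the pooled and replicate lists hold background entries. No untagged list is analysed here.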
